A study of Mus musculus with 7 samples.

Results

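The genes of glycolysis and of the response to low oxygen form a set of 31 genes, chosen by symbol from the count table of 24421 genes. They cover glucose uptake, the enzymes of glycolysis step by step, the control of glycolytic flux and of pyruvate, and the hypoxia-inducible factor (HIF) pathway with some of its target genes. All 31 symbols were found and all 31 passed the filter on low counts, which left 12428 genes for testing.

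The cells came from muscles of mice with genotype IL5-Tg (4 libraries) and of mice with genotype WT (3 libraries). IL-5 is the cytokine that promotes the formation and survival of eosinophils, and the study asked how an excess of eosinophils bears on damaged muscle. All 7 libraries were from muscle taken 3 days after ntx, a term that the labels leave unexplained. Cells carrying CD45 and SiglecF, lacking NK1, Ly6G and CD3e and labelled CD11bing were sorted as eosinophils, and their RNA was sequenced as paired reads of 42 bases. No promoter of the transgene, age or sex of the mice is stated, nor whether an IL5-Tg or WT library came from 1 mouse or from several. The series' title concerns mdx mice, a model of Duchenne muscular dystrophy, but the labels of these libraries do not say whether either group carries the mdx allele. Since separate mice are not stated, the spread behind each p-value is that between libraries, which may be partly technical.

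Total counts per library ranged from 12135031 to 20231509 in IL5-Tg and from 11581365 to 18408816 in WT. The eosinophil genes Siglecf (470 to 857 CPM in IL5-Tg, 251 to 648 CPM in WT) and Ccr3 (575 to 1057 CPM in IL5-Tg, 640 to 1393 CPM in WT) were present in every library. Some eosinophil granule genes differed between the genotypes. Of the 10 eosinophil markers 3 rose, where 0.338% of all tested genes did, and none fell. In 5 of the 10 every IL5-Tg library lay above every WT library, against 4.76% of all tested genes. Prg2 was at 423 to 1122 CPM in IL5-Tg and 104 to 144 CPM in WT (adjusted p = 0.016 by edgeR), Ear1 at 49.3 to 99.7 CPM in IL5-Tg and 7.73 to 11.3 CPM in WT (adjusted p = 0.00311), and Ear6 at 17.7 to 34.0 CPM in IL5-Tg and 1.04 to 4.53 CPM in WT (adjusted p = 0.0268). Of the other granule genes, Epx (log2 fold change 1.59) and Prg3 (0.20) did not pass (edgeR adjusted p = 0.402 and 0.96). Il5ra leaned lower, at 48.0 to 88.3 CPM in IL5-Tg and 83.8 to 181 CPM in WT. It did not pass either (log2 fold change -0.97, adjusted p = 0.363 by edgeR). The part of these differences in the values of the 31 genes was not tested. CPM are depth-scaled read counts, with library sizes adjusted by the trimmed mean of M-values (TMM). RNA of other cells was present too. All 13 muscle fibre markers were detected, with a summed level of 480 to 1471 CPM in IL5-Tg and 138 to 466 CPM in WT, so these 2 ranges did not overlap. Fibroblast markers (9 of 9 detected) summed to 2285 to 5337 CPM in IL5-Tg libraries. Their sum in WT was 3349 and 3679 CPM for replicates 1 and 2 but 204 CPM for replicate 3. Macrophage and monocyte markers (11 of 11 detected) summed to 6259 to 9139 CPM in IL5-Tg and 5620 to 8110 CPM in WT. Their sum hides a split in WT replicate 3. There C1qa was at 68.4 CPM, against 373 and 674 CPM in WT replicates 1 and 2. Adgre1 went the other way, at 2459 CPM against 1287 and 1416 CPM. Neutrophil markers (11 detected of 12 listed) summed to 2530 to 4299 CPM in IL5-Tg and 9296 to 10492 CPM in WT, mostly from Retnlg, which fell (adjusted p = 0.0416 by edgeR). The list did not move as one, since Ngp rose, with 26.3 to 33.5 CPM in IL5-Tg and 0 to 0.362 CPM in WT (adjusted p = 0.00311 by edgeR), and S100a8 was at 5.43 to 10.8 CPM in IL5-Tg and 2.36 to 157 CPM in WT. Mast cell and basophil markers (10 of 10 detected) summed to 133 to 143 CPM in IL5-Tg and 238 to 538 CPM in WT. Hdc carried most of that WT sum and fell (37.5 to 66.9 CPM in IL5-Tg, 134 to 391 CPM in WT, adjusted p = 0.0236 by edgeR), while Gata2 of the same list was at 56.3 to 75.0 CPM in IL5-Tg and 14.3 to 35.3 CPM in WT (adjusted p = 0.126 by edgeR). Of the 7 tested genes of that list, every IL5-Tg library lay below every WT library in 5, against 4.6% of all tested genes. The reverse held in 1, Gata2, against 4.76%. The summed ranges of neither list overlapped, and the part of other cell types in the results was not tested. Some fits with marker levels as covariates are given with the results. The haemoglobin genes Hba-a1, Hba-a2, Hbb-bs and Hbb-bt were at 0 in all 7 libraries. The commonest low count of a library was taken as the peak of a smoothed histogram of its low counts. It was 1, 1, 1 and 4 reads for IL5-Tg replicates 1 to 4 and 5, 8 and 12 reads for WT replicates 1 to 3. Whether counts came in steps was not tested.

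Glycolysis splits glucose into pyruvate and yields ATP without oxygen. Activated leukocytes rely on it for energy and for building blocks. The transcription factor HIF-1, made of the oxygen-regulated subunit Hif1a and its partner Arnt, raises most glycolytic genes when oxygen is low. In normal oxygen the prolyl hydroxylases of the Egln family mark Hif1a for degradation, so that HIF activity is set mainly at the protein level and is not read directly from Hif1a RNA.

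Of the 31 genes, 3 rose in IL5-Tg libraries, namely Aldoc, Pgam1 and Cited2 (9.68% of the set, against a background of 0.338% of all 12428 tested genes). None fell, where 0.0724% of all tested genes did. In both directions together 51 genes, or 0.41% of those tested, passed at a Benjamini-Hochberg adjusted p under 0.05 by the quasi-likelihood test of edgeR. At an unadjusted p under 0.05, 8 of the 31 were higher (25.8%, against 3.49% of all tested genes) and 0 were lower (against 5.54%). In 6 of the 31 every IL5-Tg library lay above every WT library (19.4%, against 4.76%), and in 1 every IL5-Tg library lay below (3.23%, against 4.6%). The log2 fold change was above 0 in 22 of 31 (71%, against 52.1%), with a median of 0.50, against 0.03 over all tested genes. These shares are descriptions, since the set was put together with earlier results of these data known. In bulk RNA, fewer cells of a type and less RNA per cell cannot be told apart.

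Aldoc, the aldolase isozyme best known from brain, had the largest fold change of the set. The gene lies at chr11:78322968-78327781 on the plus strand (mm10, GENCODE vM21). It was counted at 27.0, 28.1, 37.4 and 18.2 CPM in IL5-Tg replicates 1 to 4, against 3.75, 6.12 and 2.46 CPM in WT replicates 1 to 3. The lowest IL5-Tg library was therefore well above the highest WT library. The means were 27.7 ± 7.86 CPM in IL5-Tg (SD, n = 4) and 4.11 ± 1.86 CPM in WT (SD, n = 3), which is 2.75 ± 0.43 (SE) as a log2 fold change, with an adjusted p = 0.0268 by edgeR. These levels rest on 288, 366, 513 and 350 reads in IL5-Tg and on 62, 58 and 26 reads in WT. The commonest low count was 5, 8 and 12 reads in these WT libraries and 1, 1, 1 and 4 reads in IL5-Tg. The WT reads may stand for fewer separate counts, which was not tested. After division by the commonest low count of each library the log2 fold change was 2.83 (edgeR adjusted p = 0.00685).

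Pgam1 encodes phosphoglycerate mutase, which moves the phosphate group ahead of the enolase step. It lies at chr19:41911923-41918660 on the plus strand. It stood at 92.9, 81.1, 84.2 and 67.6 CPM in IL5-Tg replicates 1 to 4, against 29.4, 34.5 and 33.7 CPM in WT replicates 1 to 3. Both groups were tight and did not overlap. The means were 81.4 ± 10.5 CPM in IL5-Tg (SD, n = 4) and 32.5 ± 2.79 CPM in WT (SD, n = 3), which is 1.32 ± 0.23 (SE) as a log2 fold change, with an adjusted p = 0.0424 by edgeR.

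Cited2 encodes a protein that competes with HIF-1 for the coactivators CBP and p300 and is itself a HIF target, so it acts as a brake on the pathway. It lies at chr10:17723218-17725674 on the plus strand. It stood at 143, 222, 297 and 231 CPM in IL5-Tg replicates 1 to 4, against 68.3, 65.0 and 78.0 CPM in WT replicates 1 to 3. The IL5-Tg libraries varied by more than the WT libraries, yet the lowest of them was above all 3 WT values. The means were 223 ± 62.9 CPM in IL5-Tg (SD, n = 4) and 70.4 ± 6.72 CPM in WT (SD, n = 3), which is 1.66 ± 0.28 (SE) as a log2 fold change, with an adjusted p = 0.0404 by edgeR.

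Leaving out 1 library ended most of these calls, while the sizes kept their direction. Over 22 alternative settings the log2 fold change of Aldoc was 2.31 to 3.17, that of Pgam1 1.23 to 1.41 and that of Cited2 1.49 to 1.97. Without 1 library the edgeR adjusted p of Aldoc was 0.102, 0.115 and 0.112 when IL5-Tg replicate 1, 2 or 3 was left out and 0.143 without WT replicate 1. That of Pgam1 was 0.244, 0.195, 0.185 and 0.077 without IL5-Tg replicates 1 to 4, and 0.159 and 0.0535 without WT replicates 1 and 2. For Cited2 it was 0.0556, 0.16, 0.144 and 0.122 without IL5-Tg replicates 1 to 4, and 0.164 and 0.0689 without WT replicates 1 and 2. With the level of muscle fibre markers as a covariate the log2 fold changes were 2.31 for Aldoc, 1.23 for Pgam1 and 1.94 for Cited2. The edgeR adjusted p of that fit was 0.143, 0.31 and 0.0779. The covariate was the mean log2 of CPM + 1 over the 13 markers, which overlapped between the genotypes, unlike their summed CPM. In 4 of the 11 tested markers every IL5-Tg library lay above every WT library, against 4.76% of all tested genes, and in 0 below. Marker level and genotype were thus partly confounded, and this fit cannot fully separate muscle RNA from genotype. By limma-voom with quality weights the adjusted p was 0.203, 0.0763 and 0.181 for the same genes. With a block for titles that start alike it was 0.0802 for Aldoc, 0.454 for Pgam1 and 0.0337 for Cited2 by edgeR.

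**Figure D1:**
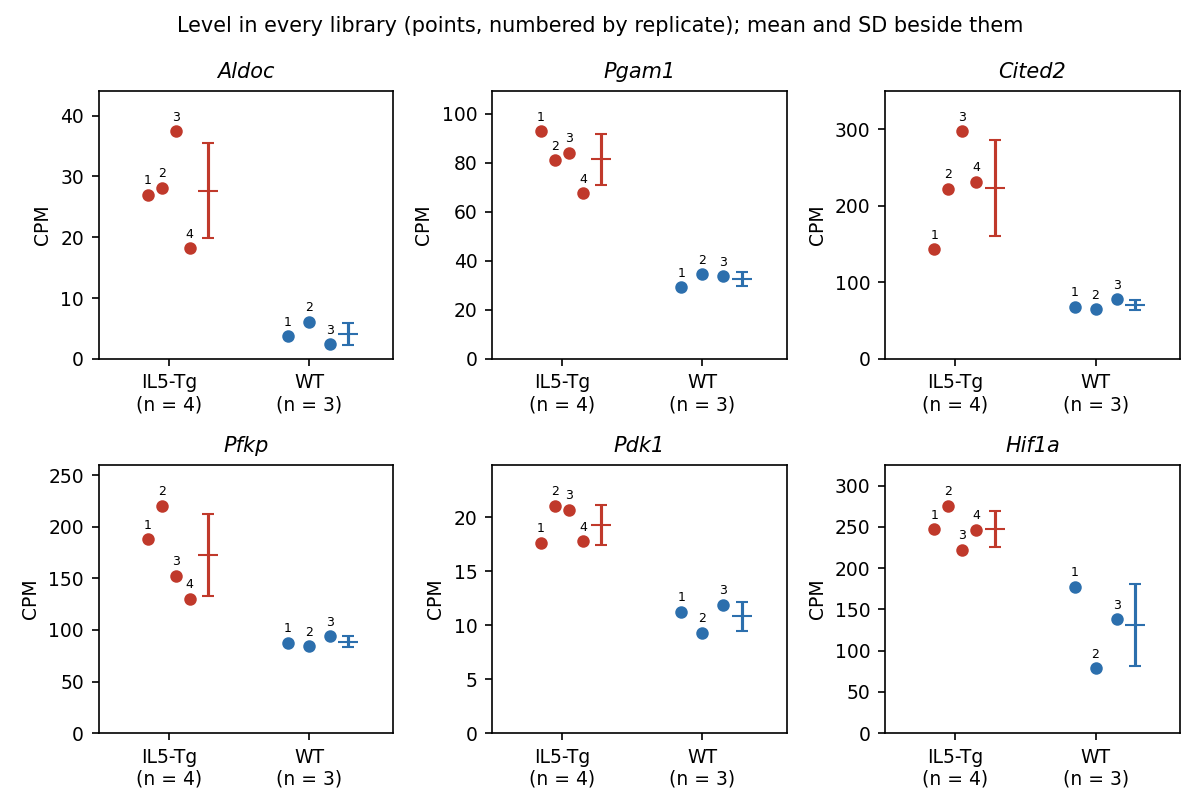
Level in CPM (y axis, from 0) of the 3 genes that rose and of Pfkp, Pdk1 and Hif1a in each library, with IL5-Tg left of WT. Points are libraries numbered by replicate, and the bar beside them is the mean with its SD (n = 4 and 3). In all 6 genes every IL5-Tg point lies above every WT point.

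Promoter sequence was read for genes that rose or came nearest to the threshold, because HIF binds a short core sequence, the hypoxia response element. The letters ACGTG and GCGTG were searched on both strands (CACGT and CACGC on the strand printed) in the 250 bases before the first listed RefSeq start of each gene (build GRCm38.p6, the assembly behind mm10). A CACGTG, which is also an E-box, counts on both strands. The windows shown are chr11:78322823-78323072 (plus strand) for Aldoc, chr19:41911621-41911870 (plus strand) for Pgam1 and chr10:17722978-17723227 (plus strand) for Cited2. Those of the next genes by p that hold a match are chr13:6648772-6649021 (minus strand) for Pfkp, chr12:73907617-73907866 (plus strand) for Hif1a, chr2:71872974-71873223 (plus strand) for Pdk1 and chr10:78009808-78010057 (minus strand) for Pfkl. Each runs 5′ to 3′ in the direction of transcription up to the base before the start, and capitals mark the matches. The RefSeq starts used here are not always the GENCODE gene starts. The Hif1a and Pfkl windows lie wholly inside the GENCODE genes, and those of Aldoc, Cited2 and Pfkp run into them.
Aldoc: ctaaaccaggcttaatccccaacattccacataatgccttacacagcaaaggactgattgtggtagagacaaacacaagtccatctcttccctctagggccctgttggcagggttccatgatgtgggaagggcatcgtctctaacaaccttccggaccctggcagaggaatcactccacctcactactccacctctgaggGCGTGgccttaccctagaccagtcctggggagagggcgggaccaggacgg
Pgam1: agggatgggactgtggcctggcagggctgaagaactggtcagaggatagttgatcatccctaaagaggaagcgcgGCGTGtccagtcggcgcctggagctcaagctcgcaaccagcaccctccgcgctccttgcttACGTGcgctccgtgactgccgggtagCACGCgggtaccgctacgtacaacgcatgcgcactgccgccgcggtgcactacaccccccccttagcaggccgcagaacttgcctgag
Cited2: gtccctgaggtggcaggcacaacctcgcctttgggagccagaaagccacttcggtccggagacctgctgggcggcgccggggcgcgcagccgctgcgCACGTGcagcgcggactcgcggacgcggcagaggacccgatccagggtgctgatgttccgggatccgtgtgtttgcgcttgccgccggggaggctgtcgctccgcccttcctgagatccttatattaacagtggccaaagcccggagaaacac
Pfkp: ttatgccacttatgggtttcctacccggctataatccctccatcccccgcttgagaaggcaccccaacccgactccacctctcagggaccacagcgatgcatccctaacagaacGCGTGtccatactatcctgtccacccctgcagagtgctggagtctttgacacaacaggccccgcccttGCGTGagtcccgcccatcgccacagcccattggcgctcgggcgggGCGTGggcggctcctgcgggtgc
Hif1a: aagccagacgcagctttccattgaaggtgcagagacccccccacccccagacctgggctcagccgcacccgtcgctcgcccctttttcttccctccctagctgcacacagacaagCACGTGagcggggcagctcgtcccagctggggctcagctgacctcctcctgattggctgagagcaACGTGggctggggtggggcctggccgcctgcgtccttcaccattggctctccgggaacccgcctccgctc
Pdk1: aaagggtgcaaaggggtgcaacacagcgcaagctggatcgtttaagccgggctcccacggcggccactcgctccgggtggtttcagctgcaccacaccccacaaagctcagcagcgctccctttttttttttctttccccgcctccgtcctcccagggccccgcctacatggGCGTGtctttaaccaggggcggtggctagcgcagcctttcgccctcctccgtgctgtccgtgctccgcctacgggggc
Pfkl: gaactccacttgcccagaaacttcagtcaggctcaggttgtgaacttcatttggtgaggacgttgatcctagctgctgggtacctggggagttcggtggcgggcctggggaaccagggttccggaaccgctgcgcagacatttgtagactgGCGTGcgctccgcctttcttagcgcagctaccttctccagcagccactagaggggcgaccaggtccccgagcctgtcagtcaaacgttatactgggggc

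The Aldoc window holds 1 match, a GCGTG whose first base lies 50 bases before the RefSeq start, which is inside the GENCODE gene. The Pgam1 window holds 3 matches, at 175, 114 and 88 bases before the start. In Cited2 the 2 counted matches are the strands of a single CACGTG at 153 bases. Of the 28 members with a promoter entry, 23 (82.1%) held a match, against 10431 of 27025 genes (38.6%). Member promoters were richer in G and C, with a median of 63.4% against 52%. Among promoters of at least 60% G and C, 15 of 16 member promoters (93.8%) and 4779 of 7446 promoters of all genes (64.2%) held a match. The first listed promoters of Hk1, Gpi1, Aldoa, Tpi1 and Pkm hold no match in this window. A match says only that the letters are present, and no binding was measured.

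The glycolytic enzymes as a group leaned higher in IL5-Tg libraries, with much spread inside each genotype. Of the 14 enzyme genes 2 rose, 12 did not pass and 0 fell, where 0.338% of all tested genes rose. Of their log2 fold changes 13 of 14 were above 0, against 52.1% of all tested genes, and the median was 0.71, against 0.03. Summed, they stood at 17436, 18336, 15104 and 11008 CPM in IL5-Tg replicates 1 to 4, against 5959, 13083 and 10739 CPM in WT replicates 1 to 3. IL5-Tg replicate 4 thus lay below WT replicate 2. WT replicate 1 was the lowest of all 7 libraries for 10 of the 14 enzymes, and IL5-Tg replicate 4 the lowest IL5-Tg library for 13 of 14. Without WT replicate 1 the median log2 fold change of the enzymes was 0.47, and 13 of 14 were above 0.

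**Figure D2:**
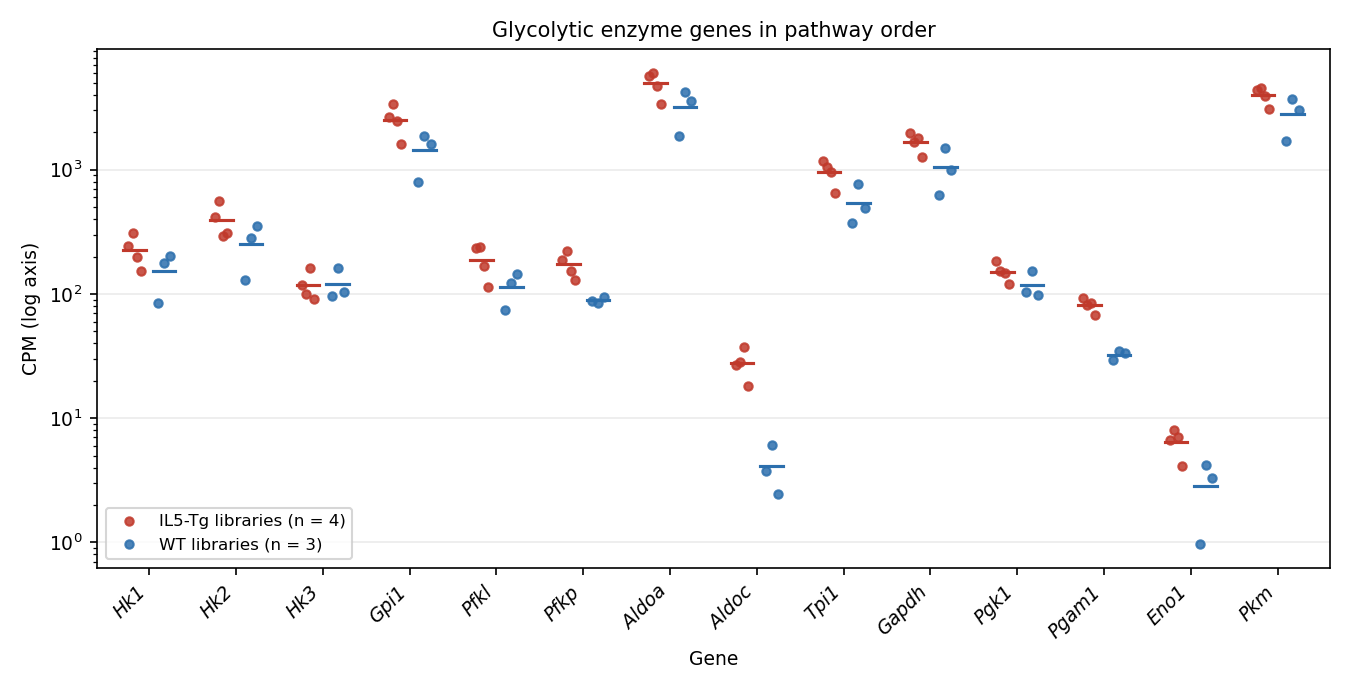
CPM on a log axis (y) of the 14 glycolytic enzyme genes in pathway order (x), with IL5-Tg libraries left of WT libraries for each gene. Points are libraries and lines are group means. The lowest WT point is WT replicate 1 for 11 of the 14 genes.

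At the entry of the pathway, hexokinases trap glucose as its phosphate. Hk2, the inducible form, was at 414, 559, 291 and 311 CPM in IL5-Tg replicates 1 to 4, against 130, 282 and 352 CPM in WT replicates 1 to 3, and the groups overlapped (log2 fold change 0.63, SE 0.37, adjusted p = 0.712 by edgeR). The broadly expressed Hk1 had a log2 fold change of 0.54 and Hk3, a form found in myeloid cells, of -0.04, and neither passed. Per kilobase of its longest coding transcript, Hk2 had the highest mean level of the 3 hexokinases in both groups, at 71.5 ± 22.3 CPM per kb in IL5-Tg (SD, n = 4) and 46.2 ± 20.6 CPM per kb in WT (SD, n = 3). The order of the 3 is not separated by their spread, and in WT replicate 1 Hk3 was above Hk2 (29.9 and 23.6 CPM per kb), with Hk1 at 52.5 ± 15.4 and Hk3 at 36.7 ± 9.85 CPM per kb in IL5-Tg (SD, n = 4) and at 36.1 ± 14.5 and 37.7 ± 11.4 CPM per kb in WT (SD, n = 3).

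Gpi1, which turns glucose 6-phosphate into fructose 6-phosphate, was at 2673, 3358, 2483 and 1601 CPM in IL5-Tg replicates 1 to 4, against 803, 1885 and 1600 CPM in WT replicates 1 to 3. The lowest IL5-Tg value was close to WT replicate 3 and below WT replicate 2 (log2 fold change 0.82, SE 0.36, adjusted p = 0.536 by edgeR). Phosphofructokinase makes the committed step. Its platelet-type subunit Pfkp was at 188, 220, 153 and 130 CPM in IL5-Tg replicates 1 to 4, against 87.6, 84.4 and 94.1 CPM in WT replicates 1 to 3, so the groups did not overlap. Its log2 fold change of 0.96 ± 0.25 (SE) did not pass (edgeR adjusted p = 0.201) and was 0.71 to 1.07 over the alternative settings. The liver-type subunit Pfkl was at 235, 238, 168 and 113 CPM in IL5-Tg replicates 1 to 4, against 73.8, 122 and 144 CPM in WT replicates 1 to 3. Here IL5-Tg replicate 4 lay inside the WT range (log2 fold change 0.73, SE 0.33, adjusted p = 0.56 by edgeR).

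Aldolase splits the sugar into 3-carbon units. Aldoa, the isozyme of muscle and most other tissues, had the highest level of the set, at 5689, 6028, 4716 and 3412 CPM in IL5-Tg replicates 1 to 4, against 1853, 4186 and 3569 CPM in WT replicates 1 to 3. The groups overlapped, since IL5-Tg replicate 4 was below both WT replicates 2 and 3 (log2 fold change 0.63, SE 0.34, adjusted p = 0.667 by edgeR). Aldoc stayed a minor isozyme, with 9.93 ± 2.82 CPM per kb in IL5-Tg (SD, n = 4) and 1.47 ± 0.668 CPM per kb in WT (SD, n = 3), against Aldoa at 3203 ± 757 CPM per kb in IL5-Tg (SD, n = 4) and 2068 ± 781 CPM per kb in WT (SD, n = 3). Within a library the log2 ratio of Aldoc to Aldoa, from CPM + 1, was -7.67, -7.69, -6.94 and -7.48 in IL5-Tg replicates 1 to 4, against -8.61, -9.20 and -10.01 in WT replicates 1 to 3. The difference was 1.83, with p = 0.0286 by a two-sided exact permutation test, the lowest p that its 35 arrangements can give. Adjusted over 7 isozyme pairs it was 0.2.

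The other 6 pairs were Slc2a3 to Slc2a1, Hk2 to Hk1, Hk3 to Hk1, Pfkp to Pfkl, Pfkfb4 to Pfkfb3 and Egln3 to Egln1, and the groups overlapped in each. Their differences in log2 ratio, IL5-Tg minus WT, ran from -0.62 (Hk3 to Hk1) to 0.53 (Egln3 to Egln1), and their exact permutation p from 0.2 to 1. With 35 arrangements and 7 pairs, a single separated pair such as Aldoc to Aldoa cannot reach an adjusted p below 0.2 in this exact permutation test, so the adjusted values do not bear on whether isozyme use differed. Without 1 library the difference of Aldoc to Aldoa was 1.46 to 2.16.

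Tpi1, which interconverts both 3-carbon products, was at 1187, 1050, 967 and 646 CPM in IL5-Tg replicates 1 to 4, against 371, 765 and 496 CPM in WT replicates 1 to 3. Of the IL5-Tg libraries, replicate 4 lay within the WT range (log2 fold change 0.82, SE 0.32, adjusted p = 0.476 by edgeR). Among the later steps the log2 fold change was 0.68 for Gapdh, 0.35 for Pgk1 and 0.50 for Pkm, the pyruvate kinase of most tissues, and none passed (edgeR adjusted p = 0.586, 0.79 and 0.746). Without WT replicate 1 the log2 fold change of Pkm was 0.24 and that of Gapdh 0.43, and without WT replicate 2 they were 0.77 and 1.06.

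Eno1, the main enolase, was counted at only 6.65, 8.07, 7.0 and 4.10 CPM in IL5-Tg replicates 1 to 4, against 0.967, 4.22 and 3.31 CPM in WT replicates 1 to 3, far below its neighbours in the pathway. The copy Eno1b carries the same bases over 72.7% of the 42-base windows of the longest Eno1 transcript and held 8, 6, 24 and 19 reads in IL5-Tg and 0, 1 and 16 reads in WT. Windows shared with any other annotated gene made up 74.3% for Eno1, 83.2% for Gapdh, 68.1% for Pgk1, 67.5% for the hypoxia target Bnip3, 41.8% for Pgam1 and 40.6% for Pkm. For Pgam1 the shared windows were those of the pseudogene Pgam1-ps2. Aldoc and Cited2 shared none. The share was 29.7% for Gpi1, 19.8% for Aldoa, 17.2% for Pfkp (with its overlapping neighbour Pitrm1), 14% for Ankrd37, 10.9% for Tpi1 and 7.75% for Hif1a. Of the 31 genes 10 shared no window and 14 shared at least 10%, among them 9 of the 14 enzymes. How the counting treated reads of such windows is not stated in the labels, so the levels of Gapdh, Eno1, Pgk1, Pgam1, Pkm and Bnip3 are uncertain, and levels compared between genes are too.

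**Figure D3:**
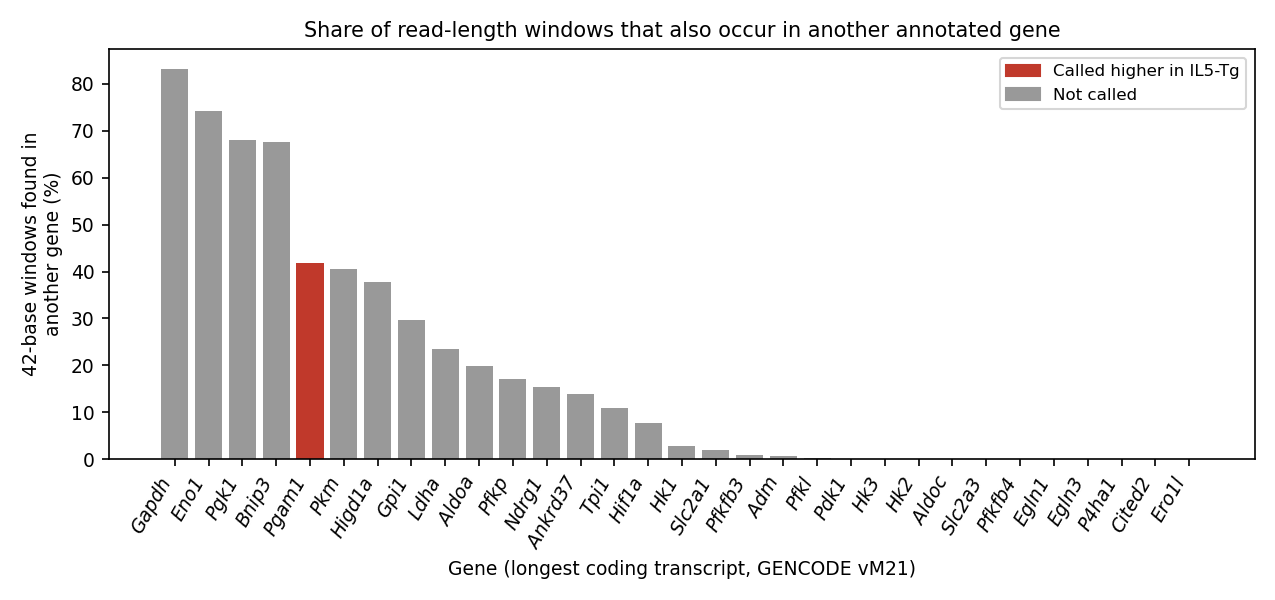
Share in percent (y) of the 42-base windows of each gene's longest coding transcript that also occur, on either strand, in a transcript of another gene in GENCODE vM21 (x, the 31 genes in falling order). The red bar is Pgam1, the one visible bar among the 3 genes that rose. Gapdh, Eno1, Pgk1, Bnip3, Pgam1 and Pkm exceed 40%, while Aldoc and Cited2 are at 0.

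Glucose uptake genes gave no change past the threshold. Slc2a1, the widespread transporter GLUT1, was at 207, 274, 168 and 213 CPM in IL5-Tg replicates 1 to 4, against 134, 109 and 264 CPM in WT replicates 1 to 3. Slc2a3, the high-affinity transporter GLUT3, was at 759, 909, 531 and 881 CPM in IL5-Tg replicates 1 to 4, against 327, 561 and 1360 CPM in WT replicates 1 to 3. For both genes WT replicate 3 was the highest WT library, and for Slc2a3 the highest of all 7. The log2 fold changes were 0.35 ± 0.33 and 0.04 ± 0.43 (SE; edgeR adjusted p = 0.862 and 0.989). That of Slc2a3 was -0.31 without WT replicate 1 and 0.81 without WT replicate 3.

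Of the 4 genes that set flux or the fate of pyruvate, none passed. Pfkfb3 and Pfkfb4 make fructose 2,6-bisphosphate, the activator of phosphofructokinase, and their log2 fold changes were -0.38 ± 0.33 and -0.28 ± 0.28 (SE; edgeR adjusted p = 0.847 and 0.875). The sign of Pfkfb3 turned to 0.14 without WT replicate 3, which held 150 CPM against 79.6 and 56.0 CPM in WT replicates 1 and 2. Ldha, which reduces pyruvate to lactate, averaged 1999 ± 461 CPM in IL5-Tg (SD, n = 4) and 1572 ± 489 CPM in WT (SD, n = 3), a difference within the spread (log2 fold change 0.35, SE 0.31, adjusted p = 0.852 by edgeR). Pdk1, a kinase that closes pyruvate's way into mitochondria, was at 17.6, 21.1, 20.7 and 17.8 CPM in IL5-Tg replicates 1 to 4, against 11.2, 9.29 and 11.9 CPM in WT replicates 1 to 3. These groups did not overlap, but the log2 fold change of 0.83 ± 0.29 (SE) did not pass (edgeR adjusted p = 0.414).

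**Figure D4:**
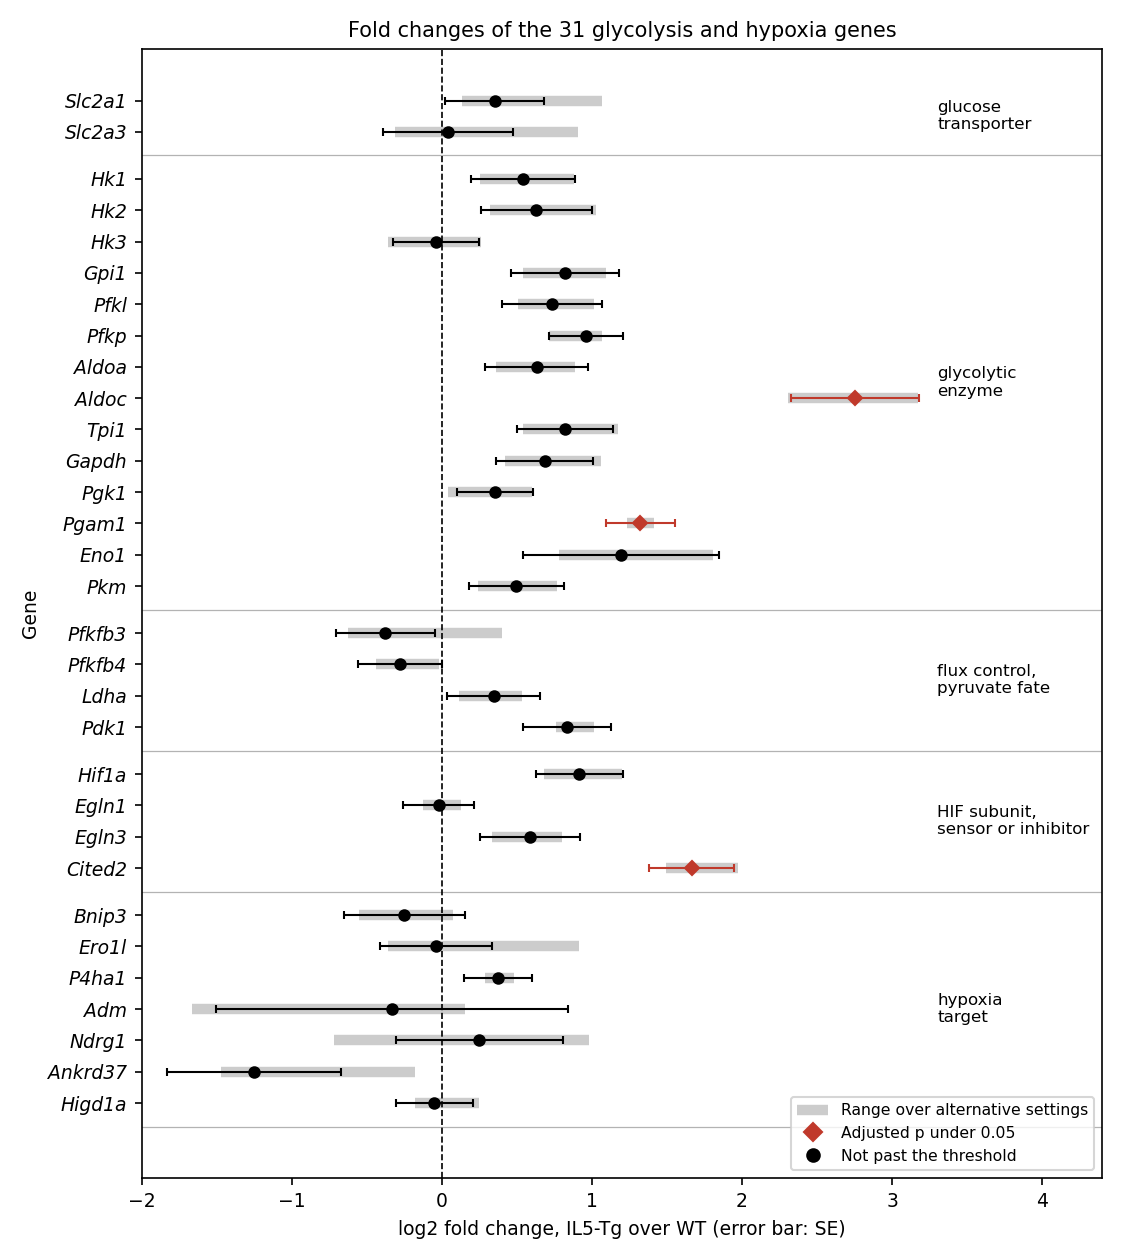
Log2 fold change, IL5-Tg over WT (x), of all 31 genes by role (y). Points are the edgeR estimates with their SE, grey bands span the 22 alternative settings, and red diamonds mark Aldoc, Pgam1 and Cited2, which passed at an adjusted p under 0.05. The enzymes lie mostly right of 0, while the hypoxia targets lie on both sides.

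In the HIF pathway itself, Hif1a was at 247, 276, 222 and 246 CPM in IL5-Tg replicates 1 to 4, against 177, 79.0 and 138 CPM in WT replicates 1 to 3. All 4 IL5-Tg values were above all 3 WT values, and the WT libraries varied more than the IL5-Tg libraries. The log2 fold change of 0.92 ± 0.29 (SE) did not pass (edgeR adjusted p = 0.342) and was 0.68 to 1.20 over the alternative settings. Neither oxygen sensor passed. Egln1 averaged 42.9 ± 4.85 CPM in IL5-Tg (SD, n = 4) and 43.6 ± 8.09 CPM in WT (SD, n = 3), a log2 fold change of -0.02. Egln3, itself a HIF target, was at 30.4, 33.9, 15.7 and 23.8 CPM in IL5-Tg replicates 1 to 4, against 14.4, 16.3 and 21.0 CPM in WT replicates 1 to 3 (log2 fold change 0.59, SE 0.33, adjusted p = 0.696 by edgeR).

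The 7 hypoxia targets outside glycolysis lay on both sides of no change. None of them passed, 2 log2 fold changes were above 0 and 5 below, and the median was -0.05. Summed, they stood at 214, 233, 218 and 259 CPM in IL5-Tg replicates 1 to 4, against 224, 175 and 267 CPM in WT replicates 1 to 3, so the groups overlapped. Ankrd37, a strongly HIF-responsive gene in other cells, had the largest negative value of the 31 genes. It was at 1.78, 5.23, 3.35 and 5.30 CPM in IL5-Tg replicates 1 to 4, against 6.22, 6.55 and 15.3 CPM in WT replicates 1 to 3, and did not overlap (log2 fold change -1.25, SE 0.58, adjusted p = 0.568 by edgeR). Its log2 fold change was -0.67 without WT replicate 3, -0.67 and -0.18 with fibroblast and muscle fibre markers as covariate and -0.60 with the shared start of titles as a block, and it passed in none of these.

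P4ha1, a collagen prolyl hydroxylase, was at 71.2, 71.3, 56.4 and 71.1 CPM in IL5-Tg replicates 1 to 4, against 59.3, 43.6 and 53.3 CPM in WT replicates 1 to 3, and its log2 fold change of 0.37 ± 0.23 (SE) did not pass (adjusted p = 0.73 by edgeR). The mitophagy receptor gene Bnip3 (-0.25), the oxidoreductase gene of the endoplasmic reticulum Ero1l (-0.04), the mitochondrial gene Higd1a (-0.05) and the stress-responsive gene Ndrg1 (0.25) had log2 fold changes smaller than their SE. Ndrg1 spanned 15.2 to 41.2 CPM in IL5-Tg libraries, and WT libraries lay on both sides of that range, from 7.37 CPM in WT replicate 3 to 47.5 CPM in WT replicate 2. Adm, which encodes the vasodilator adrenomedullin, was near the limit of counting at 1.31 to 4.23 CPM in IL5-Tg and 4.59, 4.22 and 0 CPM in WT replicates 1 to 3. The 0 reads in WT replicate 3 allow up to 0.284 CPM by a floor of 3 reads, which covers counting error only. That floor takes each read as a separate count. The commonest low count in WT replicate 3 was 12 reads, and the true limit may be higher, which was not tested.

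**Figure D5:**
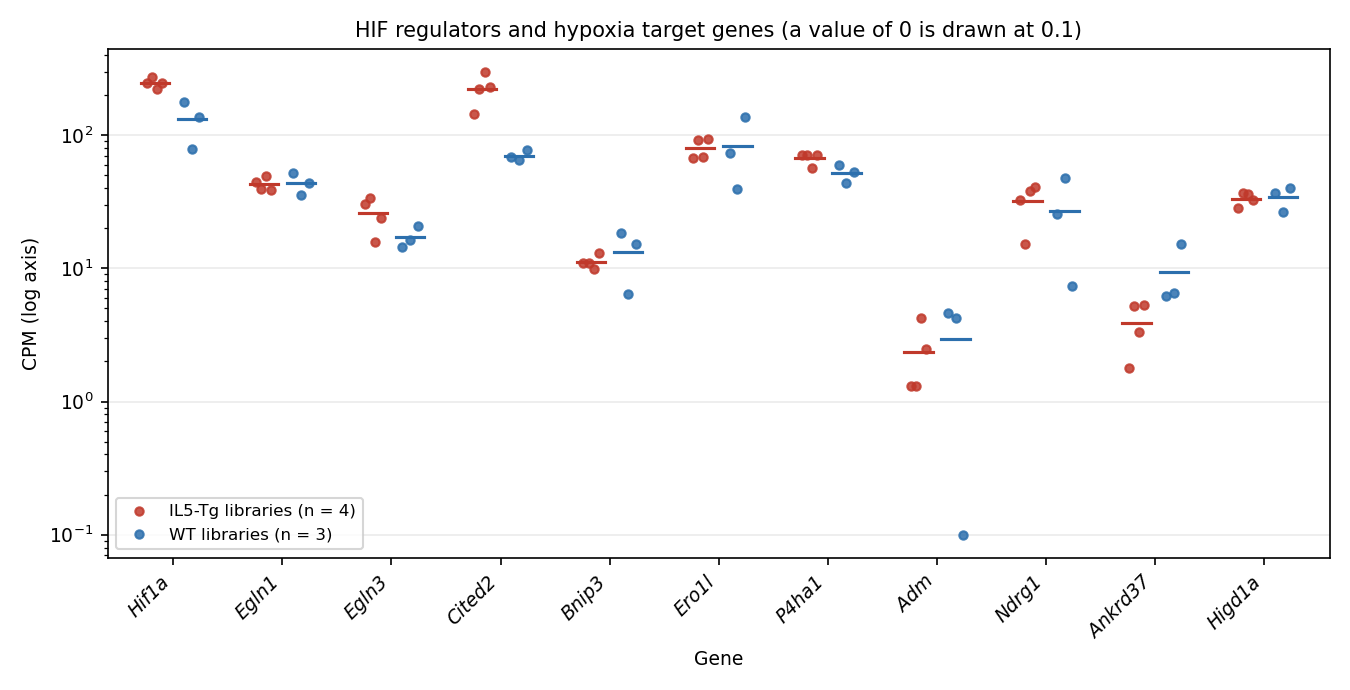
CPM on a log axis (y) of Hif1a, Egln1, Egln3, Cited2 and the 7 hypoxia targets (x), with IL5-Tg libraries left of WT libraries. Points are libraries and lines are group means, and the 0 of Adm in WT replicate 3 is drawn at 0.1. Hif1a and Cited2 do not overlap between groups, while most targets do.

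Other genes of these pathways, taken from lists drawn up apart from the 31, gave no call in either direction. None of 17 tested genes for other glycolytic isozymes and transporters passed (median log2 fold change 0.35), nor any of 13 for pyruvate entry to mitochondria (0.24), 7 of the pentose phosphate pathway (0.14), 12 of glycogen and gluconeogenesis (0.41), 7 HIF subunits and regulators (-0.06) or 29 other hypoxia targets (0.14). All tested genes had a median of 0.03. The values with the smallest p in the hypoxia list were Bhlhe40, a transcriptional repressor, at 1.32 ± 0.35 (edgeR adjusted p = 0.221), and Vegfa, the vascular growth factor, at 1.48 ± 0.51 (log2 fold change with SE; edgeR adjusted p = 0.403). Vegfa was at 261, 271, 162 and 191 CPM in IL5-Tg replicates 1 to 4, against 76.2, 23.7 and 139 CPM in WT replicates 1 to 3, so its groups did not overlap.

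In the remaining lists the smallest p belonged to Ldhc (log2 fold change -1.0) and Slc2a8 (0.65), Pdk3 (0.94) and Mpc2 (-0.39), the pentose phosphate enzymes G6pdx (0.55) and Tkt (0.53), the glycogen genes Pygm (1.17) and Pgm1 (-0.62), and Epas1 (0.64) and Vhl (-0.32). Their edgeR adjusted p ran from 0.339 to 0.883. Pygm is the muscle form of glycogen phosphorylase and also a member of the muscle fibre marker list. The muscle isozymes Pgam2, Eno3 and Pfkm, chosen after their values were seen, were at 8.07 to 21.7, 38.6 to 119 and 8.99 to 15.4 CPM in IL5-Tg libraries. In WT replicates 1 and 2 they were at 9.0 and 6.34, 63.0 and 117, and 7.67 and 18.4 CPM, and in WT replicate 3 at 0.189, 7.28 and 1.23 CPM. The part of muscle RNA in the level of genes that muscle shares, such as Aldoa, was not tested. The muscle fibre covariate cannot settle it, since marker level and genotype were partly confounded.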

How the data were processed

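The deposited file holds raw read counts per gene symbol, 1 column per library, as its values show. The submitters' processing notes name the tools bcl2fastq (2.20), Bowtie and STAR and the build mm10. What each tool did, and how reads were counted (program, annotation, strand), is not given in the sources used here. Per the labels' protocols, libraries were stranded mRNA. Rows for reads without a feature and ambiguous reads (0.75% to 0.943% of a library) were left out. Reads without a feature made up 9.15% to 13.0% of a library in IL5-Tg and 15.6% to 18.2% in WT, so these ranges did not overlap. Genes detected numbered 13641 to 14391 in IL5-Tg and 13813, 12759 and 10877 in WT replicates 1 to 3. The part of these differences in the results was not tested. Replicate numbers follow accession order and pair nothing. No 2 replicates were a repeat of one library (chi-square 26.0 to 149 for each gene).

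Genotypes were compared by quasi-likelihood F tests in edgeR 4.0.16 (R 4.3.3) with TMM, filterByExpr, robust estimation and genotype as the only term, fitted to all genes. SE come from the fold change and F statistic. Libraries of a genotype varied by 52.5% (common biological coefficient of variation). Alternatives used DESeq2 1.42.0 and limma 3.58.1, other scalings, filters, covariates and left-out libraries. Isozyme ratios were tested by exact permutation. Described in full were called members, the 6 next by p, those with the highest level and the largest fold changes, and Hif1a, with other members by role. Members and lists were chosen with earlier results of these data known. Exon windows, lengths and copies are from GENCODE vM21, promoters from RefSeq (GRCm38.p6), with 28 of 31 members matched. The 3-read floor covers counting error only and takes each read as a separate count.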

Additional observations from a re-analysis of the deposited data

Results flagged for a closer look

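In 1 of 38 checks (31 genes and 7 isozyme ratios over the 4 IL5-Tg libraries) a library stood far from the others. P4ha1 was at 56.4 CPM in IL5-Tg replicate 3, while the other IL5-Tg libraries lay between 71.1 and 71.3 CPM. The gap to the nearest library was 0.992 of the group's range. Chance gives such a gap in about 1 of 20 groups.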

How the results depend on the processing

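Of 678 recomputed member fold changes 607 kept direction and side of the threshold, 25 (all of Aldoc, Pgam1 or Cited2) lost the call and 46 changed sign, in 9 genes, none of them called. The number of members that rose was 3 in 12 of 22 alternatives. It was 0 by limma-voom with quality weights and with muscle fibre markers as covariate, 2 (without Pgam1, adjusted p = 0.0501) without robust estimation, 1 (Cited2) with a replicate block made from the shared start of titles, and 0 to 3 without 1 library. None fell under any setting. Genes called numbered 51 in the main test, 224 by DESeq2, 32 by limma-voom, 97 by the newer edgeR fit, 100 after division by the most common low count, 106, 105 and 22 with fibroblast, macrophage and muscle fibre markers as covariate, and 16 to 97 without 1 library. By the newer fit and by DESeq2 the same 3 members rose. The labels do not say what the shared start of titles marks, and deviations from the group means correlated at 0.175 and -0.0233 in its 2 mixed pairs. No paired analysis by replicate number was possible because numbers follow accession order.

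Sign changes of log2 fold changes came with the fibroblast covariate (Ero1l 0.49, Higd1a 0.072, Ndrg1 -0.38, Pfkfb3 0.12), the macrophage covariate (Ero1l 0.51, Higd1a 0.071, Ndrg1 -0.25, Pfkfb3 0.10), the muscle fibre covariate (Bnip3 0.078, Ero1l 0.91, Higd1a 0.25, Ndrg1 -0.72, Pfkfb3 0.40), limma-voom (Adm 0.041, Egln1 0.010, Ero1l 0.18, Hk3 0.081), the block (Bnip3 0.047, Egln1 0.029, Ero1l 0.58, Higd1a 0.12, Pfkfb3 0.010) and upper-quartile scaling (Egln1 0.0027, Ero1l 0.0059). Without 1 library the ranges were -0.31 to 0.81 (Slc2a3), -0.23 to 0.26 (Hk3), -0.63 to 0.14 (Pfkfb3), -0.12 to 0.13 (Egln1), -0.55 to 0.060 (Bnip3), -0.36 to 0.55 (Ero1l), -0.89 to 0.16 (Adm), -0.18 to 0.98 (Ndrg1) and -0.18 to 0.094 (Higd1a). The log2 ratio of Pfkfb4 to Pfkfb3 differed by 0.022 with CPM + 5 and by 0.047 after thinning, and by -0.22 to 0.20 without 1 library. For Slc2a3 to Slc2a1 that range was -0.54 to 0.0025. Without 1 library the exact test of ratios cannot pass, so only values were compared. The cause of these changes was not tested.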
